A study of Rattus norvegicus with 6 samples.

Results

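The miRNAs miR-143 and miR-145 were followed in exosomes, the small membrane vesicles that cells release, from rat serum. The names of both arms of both precursors, rno-miR-143-3p, rno-miR-143-5p, rno-miR-145-5p and rno-miR-145-3p (written below without the rat prefix), were looked up in the deposited table, and 4 of 4 were present among its 867 listed miRNA sequences. Exosomes came from male Sprague-Dawley rats on a normal diet, aged 6 to 8 weeks. NXT-Exo (5 libraries, replicates 1 to 5) were from animals gavaged with Naoxintong Capsule (NXT), a traditional Chinese medicine, at 1000 mg/kg/d, and Ctl-Exo (1 library, replicate 5) from animals gavaged with saline at 5 mL/kg/d. Sample titles put the dosing at 7 days in both groups. A treatment field instead counts upward from 7 days in NXT-Exo 1 to 11 days in NXT-Exo 5, and has 11 days in Ctl-Exo 5. Neither the labels nor the methods state whether a library held the serum of 1 rat or of a pool. The paper's methods describe ultracentrifugation of a total volume of serum, and storage of the exosomes in aliquots. The spread between NXT-Exo libraries may thus be partly or wholly technical. If the libraries were aliquots of a pool, the SDs and intervals below would hold no variation between animals. Further Ctl-Exo libraries were not used here. Listed reads numbered 1168686 to 3781718 per NXT-Exo library, and 1890463 for Ctl-Exo 5.

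The genes of miR-143 and miR-145 lie side by side and are made as parts of a shared transcript, which serum response factor and its coactivator myocardin switch on in smooth muscle. In the vessel wall both miRNAs hold smooth muscle cells in the contractile state, with Klf4, Klf5 and Elk1 among their known targets. Endothelial cells exposed to flow can also release them in vesicles. From each hairpin precursor, 1 arm is usually kept as the guide strand and the other, the passenger strand, is mostly degraded. The guide strands are miR-143-3p and miR-145-5p.

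The sequences of the 4 arms are shown as the table lists them, in DNA letters from 5′ to 3′, because the comparisons that follow are between the arms and their variants. Capitals mark the seed, bases 2 to 8, which pairs with target RNAs.
miR-143-3p: tGAGATGAagcactgtagctca
miR-143-5p: gGTGCAGTgctgcatctctgg
miR-145-5p: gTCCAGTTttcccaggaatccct
miR-145-3p: gGATTCCTggaaatactgttc
The 4 seeds differ, so these arms address different target sites. Each of the 4 listed sequences was identical to the mature sequence in RefSeq (assembly GRCr8, minus strand), where miR-143-3p lies at chr18:57371373-57371394, miR-143-5p at chr18:57371408-57371428, miR-145-5p at chr18:57370033-57370055 and miR-145-3p at chr18:57369997-57370017. The submitters' processing notes name the older build Rnor_6.0. In GRCr8 the 2 hairpins are 1278 bases apart, both lie within the long noncoding RNA gene Carmn (also Mir143hg) on the same strand as Carmn, and no other miRNA gene lies within 50 kb of them. The annotation used here does not say whether they fall in an exon or an intron of Carmn. The hairpins are given in RNA letters, with the mature arms in capitals, because the 3′ ends of the variants were compared with them.
Mir143: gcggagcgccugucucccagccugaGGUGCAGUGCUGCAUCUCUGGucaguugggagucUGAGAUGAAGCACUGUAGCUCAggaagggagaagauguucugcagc
Mir145: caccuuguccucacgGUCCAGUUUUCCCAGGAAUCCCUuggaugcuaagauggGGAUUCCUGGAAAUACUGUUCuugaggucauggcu

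Levels are given in CPM, the reads of a miRNA relative to the size of its library, with library sizes adjusted by the trimmed mean of M-values (TMM). The miR-143 guide strand was abundant, and the other arms were far lower. miR-143-3p was 11499, 9113, 7082, 11766 and 8678 CPM in NXT-Exo 1 to 5 and 11639 CPM in Ctl-Exo 5. NXT-Exo 4 and NXT-Exo 1 were level with the control library, and NXT-Exo 3 was the lowest. The NXT-Exo mean was 9628 ± 1983 CPM (SD, n = 5), and miR-143-3p ranked between 16 and 25 among the miRNAs of each library. Its reads, 15052 to 34491 per NXT-Exo library, leave a counting error of 0.538% to 0.815%, far below the 20.6% coefficient of variation between NXT-Exo libraries.

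miR-145-5p, the guide strand of the second hairpin, was 445.4, 346.7, 289.5, 268.9 and 281.4 CPM in NXT-Exo 1 to 5 and 403.5 CPM in Ctl-Exo 5. The groups overlapped, since NXT-Exo 1 was above the control library and the other NXT-Exo libraries were below it. The NXT-Exo mean was 326.4 ± 72.9 CPM (SD, n = 5), at ranks 96 to 121 across the libraries.

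miR-145-3p, the passenger strand of miR-145, was 79.3, 66.9, 52.2, 71.9 and 74.3 CPM in NXT-Exo 1 to 5 and 86.6 CPM in Ctl-Exo 5. Although the control library was above every NXT-Exo library, its 159 reads give a 95% Wilson interval of 74.1 to 101.1 CPM, which holds the values of NXT-Exo 1 and NXT-Exo 5. Such intervals cover counting error only. The NXT-Exo mean was 68.9 ± 10.4 CPM (SD, n = 5).

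miR-143-5p, the passenger strand of miR-143, was 62.7, 52.4, 37.8, 69.6 and 64.9 CPM in NXT-Exo 1 to 5 and 104.0 CPM in Ctl-Exo 5. Here the control library stood clearly apart, and its Wilson interval of 90.3 to 119.8 CPM held none of the NXT-Exo values. The NXT-Exo mean was 57.5 ± 12.7 CPM (SD, n = 5).

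**Figure D1:**
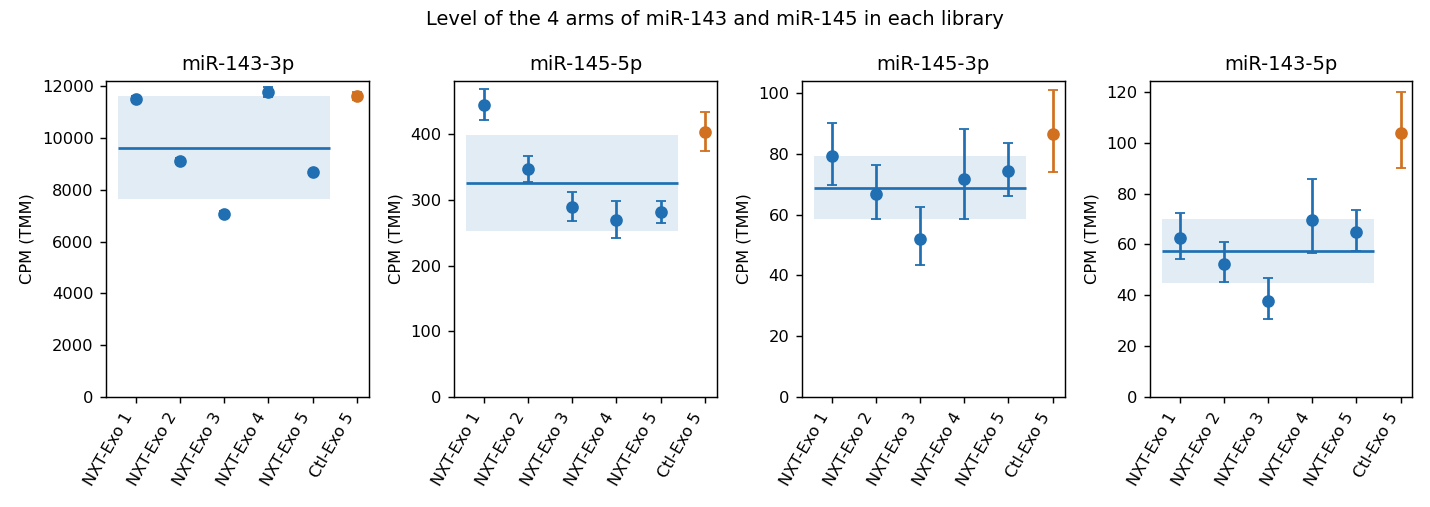
CPM of each arm (y axis, from 0) in the 5 NXT-Exo libraries (blue) and Ctl-Exo 5 (orange). Bars are 95% Wilson intervals of counting error, the line is the NXT-Exo mean and the band its SD. Ctl-Exo 5 lies inside the NXT-Exo range for miR-143-3p and miR-145-5p and above it for miR-145-3p and miR-143-5p, where 104.0 CPM stands against a highest NXT-Exo value of 69.6 CPM.

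In order of level, miR-143-3p was first and miR-145-5p was next in 6 of 6 libraries. The passenger strands were close to each other, and the SDs of their NXT-Exo means overlap. miR-145-3p was above miR-143-5p in 5 of 5 NXT-Exo libraries, and the order was the opposite in Ctl-Exo 5. Together the 4 arms made up 0.695% to 1.33% of an NXT-Exo library's listed reads and 1.19% of those of Ctl-Exo 5, and miR-143-3p supplied 94.9% to 96.6% of them in each library.

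The question of the comparison was whether the miRNAs of serum exosomes differ after NXT. All 4 arms had a lower NXT-Exo mean than Ctl-Exo 5, as did 39% of all 865 miRNAs with reads and 48.9% of the 229 that averaged 100 reads or more, and none of the 4 passed the test. edgeR's quasi-likelihood test was fitted over the 865 miRNAs, with Benjamini-Hochberg adjustment (FDR). As Ctl-Exo had 1 library, the spread was taken from NXT-Exo and the lone control library was assumed to vary as these do. By edgeR, the log2 fold change of NXT-Exo over Ctl-Exo was -0.27 (SE 0.25, 95% interval -0.80 to 0.25, adjusted p = 0.81) for miR-143-3p. For miR-145-5p it was -0.30 (SE 0.25, interval -0.82 to 0.21, adjusted p = 0.81) in edgeR. For miR-145-3p it was -0.33 (SE 0.31, interval -0.97 to 0.31, adjusted p = 0.81) in edgeR. These intervals hold no change as well as moderate decreases, but not a 2-fold change in either direction. For miR-145-3p this depends on single libraries, since the lower bound was -1.03 without NXT-Exo 1, -1.02 without NXT-Exo 2 and -1.04 without NXT-Exo 5.

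miR-143-5p had the lowest estimate of the 4, at -0.86 (SE 0.32, interval -1.52 to -0.20) in edgeR. Its unadjusted p was 0.0125 in edgeR and 0.0251 in DESeq2, and the adjusted p was 0.81 in edgeR and 0.98 in DESeq2, so it did not pass the threshold of 0.05. An unadjusted p under 0.05 with a lower level in NXT-Exo was found by edgeR for 1.73% of all miRNAs, and one in either direction for 5.32%. The NXT-Exo mean was 0.553 times the control level, short of the 2-fold limit that the study's methods used together with the FDR. No arm was at least 2-fold apart, against 11.4% of all miRNAs that were so with Ctl-Exo 5 outside the NXT-Exo range. Over the whole table edgeR called 0 of 865 miRNAs (0%), with 46 at an unadjusted p under 0.05, and DESeq2 called 0 with 33.

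Ctl-Exo 5 was above all 5 NXT-Exo libraries for 2 of the 4 arms, the passenger strands, against 15.3% of all miRNAs and 17% of those averaging 100 reads or more. The 4 arms come from a shared transcript and the same libraries, so they are not 4 independent observations. An exact two-sided permutation test over the 6 libraries cannot give a p below 0.167 in this design. This exact test gave p = 0.167 for miR-143-5p, 0.333 for miR-145-3p and 0.5 for each guide strand.

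**Figure D2:**
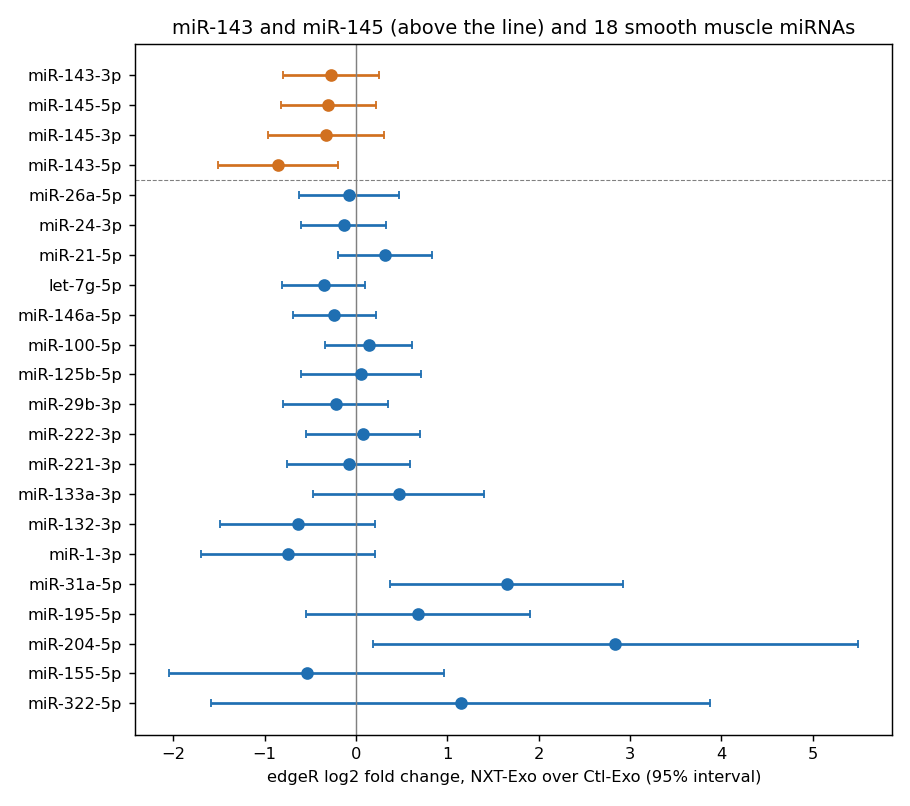
edgeR log2 fold change of NXT-Exo over Ctl-Exo (x axis) with its 95% interval, for the 4 arms (orange, above the dashed line) and for 18 miRNAs with known roles in smooth muscle (blue, ordered by mean reads, highest first). The intervals of miR-143-3p, miR-145-5p and miR-145-3p span 0, that of miR-143-5p runs from -1.52 to -0.20, and the blue points lie on both sides of 0 with wider intervals at low read numbers.

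Ratios within a library need no scaling factor. There were 25.8, 26.3, 24.5, 43.8 and 30.8 reads of miR-143-3p per read of miR-145-5p in NXT-Exo 1 to 5 and 28.8 in Ctl-Exo 5. The control library lay within the NXT-Exo range, and NXT-Exo 4 had the highest ratio. On the log2 scale the NXT-Exo mean was 0.03 above the control library with an SD of 0.34, and the exact permutation p was 1. The arms are 22 and 23 bases long, and dividing reads by length gives ratios of 25.6 to 45.7 for NXT-Exo and 30.2 for Ctl-Exo 5. How efficiently each sequence was ligated and amplified is not known, so such a ratio is one of reads and not of molecules.

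Arm use differed strongly between the hairpins. The shares count reads of the 4 arms only and leave out the variants described below. Among these, miR-145-y, from the 3p arm, had 290 reads over the 6 libraries against 1112 of miR-145-3p. miR-143-y had 3265 reads against 150200 of miR-143-3p. The passenger strand made up 0.542%, 0.572%, 0.530%, 0.588% and 0.743% of miR-143 reads in NXT-Exo 1 to 5, and 0.886% in Ctl-Exo 5 (95% Wilson interval 0.769% to 1.02%). All 5 NXT-Exo libraries were below the control library, with a mean of 0.595% ± 0.086 (SD, n = 5), while the interval of NXT-Exo 5, 0.656% to 0.841%, overlapped that of Ctl-Exo 5. The exact permutation p was 0.167, the smallest possible here.

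For miR-145 the passenger strand was a much larger share, at 15.1%, 16.2%, 15.3%, 21.1% and 20.9% of reads in NXT-Exo 1 to 5 and 17.7% in Ctl-Exo 5. The NXT-Exo mean was 17.7% ± 3.03 (SD, n = 5), the control library was in the middle of the range, and the exact permutation p was 1. In reads per read, there were 133.6 to 187.5 of miR-143-3p for each miR-143-5p in NXT-Exo against 111.9 in Ctl-Exo 5, but 3.74 to 5.61 of miR-145-5p for each miR-145-3p in NXT-Exo against 4.66 in Ctl-Exo 5. The passenger strands differed in the same sense when set against each other, with 0.724 to 0.967 reads of miR-143-5p per miR-145-3p in NXT-Exo and more than 1 in Ctl-Exo 5.

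**Figure D3:**
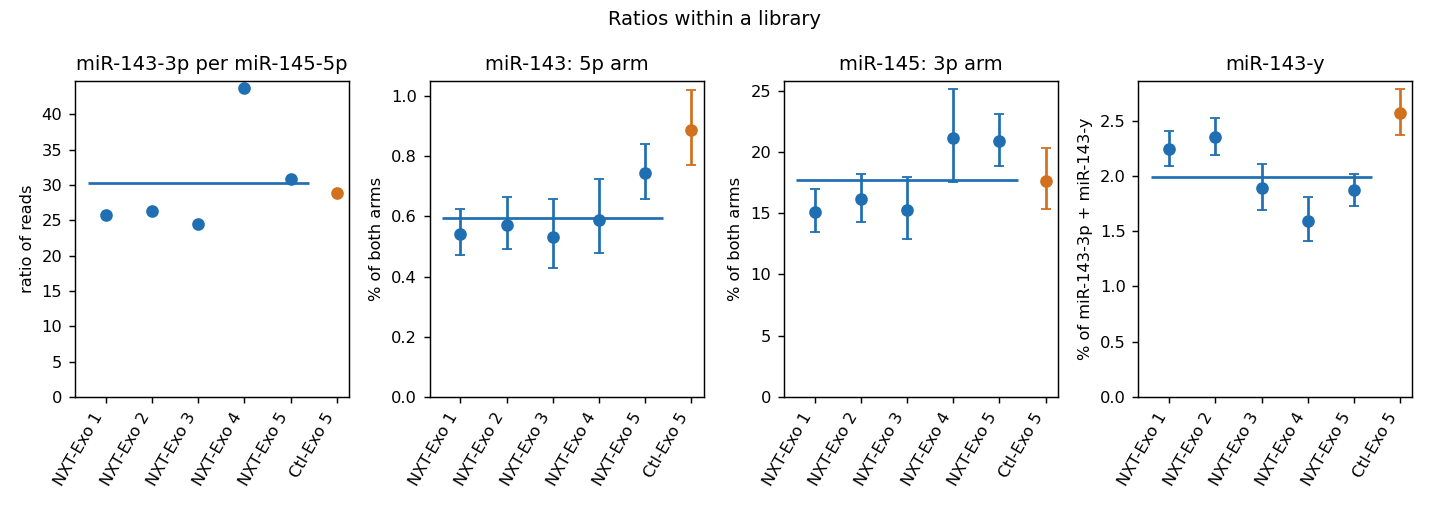
Ratios within each library (y axes from 0) for the 5 NXT-Exo libraries (blue, line at their mean) and Ctl-Exo 5 (orange). From left to right, the panels give miR-143-3p reads per miR-145-5p read, the 5p arm in percent of miR-143 reads, the 3p arm in percent of miR-145 reads, and miR-143-y in percent of miR-143-3p and miR-143-y reads, with 95% Wilson intervals on the percentages. NXT-Exo 4 stands out at 43.8 in the first panel, and Ctl-Exo 5 is highest in the second panel (0.886%) and the fourth (2.57%).

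Another 4 listed sequences carry the miR-143 or miR-145 name without the rat prefix. They are shown with the seed in capitals because they begin in or near the arms above and end differently.
miR-143-y: tGAGATGAagcactgtagctctt
miR-143-z: tGAGATGAagcactgtagctag
miR-143-x: gGTGCAGTgctgcatctctggtct
miR-145-y: aTTCCTGGaaatactgttcta
miR-143-y and miR-143-z have the seed of miR-143-3p, and miR-143-x has that of miR-143-5p, while miR-145-y starts later in the 3p arm of miR-145 and so has a shifted seed. None of the 4 follows the rat hairpin to its last base. Counted from the 5′ end, miR-143-y matches Mir143 over 21 of 23 bases, miR-143-z over 20 of 22 and miR-143-x over 23 of 24, and miR-145-y matches Mir145 over 20 of 21. A predicted miRNA in the table also has the miR-143-3p seed, with 14 reads over the 6 libraries, and another shares the shifted seed of miR-145-y, with 7 reads. No other listed sequence has the seed of miR-145-5p or that of miR-145-3p.

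miR-143-y was the most abundant variant, at 263.7, 219.6, 136.2, 190.7 and 165.4 CPM in NXT-Exo 1 to 5 and 307.1 CPM in Ctl-Exo 5. The control library was above every NXT-Exo library, and in each library the level was below that of miR-145-5p. As a share of miR-143-3p and miR-143-y reads it was 1.60% to 2.35% in NXT-Exo, with a mean of 1.99% ± 0.307 (SD, n = 5), and 2.57% in Ctl-Exo 5. The exact permutation p for this share was 0.333, and the intervals of NXT-Exo 2 and Ctl-Exo 5 overlap (2.19% to 2.53% and 2.37% to 2.79%). miR-145-y had no such order in CPM. Its 16.9 CPM in Ctl-Exo 5 lay within the NXT-Exo range, whose lowest value was 14.9 CPM. It made up 17.1% to 27.2% of miR-145-3p and miR-145-y reads in NXT-Exo against 16.3% for Ctl-Exo 5. For this share the control library was thus below every NXT-Exo library, opposite to miR-143-y, and the exact permutation p was also 0.333. miR-143-z had 2 to 45 reads per NXT-Exo library and 4 in Ctl-Exo 5, and miR-143-x had 0 to 8 and 3, so neither could be compared at this depth.

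The pattern of the arms over the libraries was compared by the SD of the log2 ratio between a pair of miRNAs over the 6 libraries, computed on CPM + 1. A small SD means that both rise and fall together, and it is also small between miRNAs that hardly vary. For miR-143-3p, 228 miRNAs averaging 100 reads or more were ranked. The closest was miR-145-3p from the neighbouring hairpin, with an SD of 0.16, where counting error alone gives 0.12. It was followed by miR-223-3p, a miRNA of myeloid cells and platelets, with 0.16, and by miR-28-5p with 0.17, miR-425-3p with 0.17 and miR-378a-3p with 0.18. The median over the 228 was 0.38. The order of these closest miRNAs is not stable, and miR-145-3p was at rank 17 without NXT-Exo 3 and at ranks 1 to 4 without any other single library. miR-143-5p, from the same hairpin as miR-143-3p, was only at rank 50, with an SD of 0.29. Over the 5 NXT-Exo libraries alone it was at rank 9, with an SD of 0.19.

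The co-transcribed guide strand miR-145-5p was at rank 60 of 228, with an SD of 0.30 against 0.05 from counting error. This distance rests on NXT-Exo 4, where miR-143-3p was at its highest and miR-145-5p at its lowest level. Without NXT-Exo 4 the SD was 0.13 and the rank 4, and without any other library the rank was between 62 and 101. NXT-Exo 4 was also the smallest library, with 344 reads of miR-145-5p, which give a counting error of 5.39%. The part of library size in this was not tested. For miR-145-5p itself, the closest miRNAs were miR-23a-3p with an SD of 0.12, a predicted miRNA with 0.13, miR-425-3p with 0.14, miR-6328 with 0.15 and miR-744-x with 0.16. Its own passenger strand, miR-145-3p, was at rank 40 with an SD of 0.26.

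**Figure D4:**
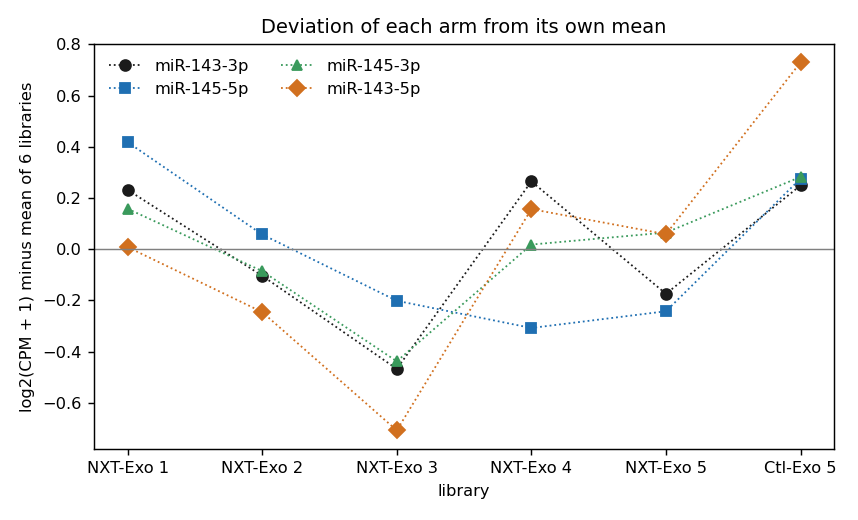
Deviation of each arm from its own mean over the 6 libraries (y axis, log2 of CPM + 1), with the libraries on the x axis and dotted lines to guide the eye. miR-143-3p and miR-145-3p run closely together (SD of their log2 ratio 0.16). miR-145-5p parts most from miR-143-3p in NXT-Exo 4, and lies clearly below miR-145-3p both there and in NXT-Exo 5. miR-143-5p has the largest swing, from its low in NXT-Exo 3 to its high in Ctl-Exo 5.

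Such a distance between miRNAs of a shared transcript was also seen elsewhere in the table. The SD of the log2 ratio over the 6 libraries was 0.18 for miR-17-5p and miR-20a-5p, 0.23 for miR-221-3p and miR-222-3p, 0.27 for miR-191a-5p and miR-425-5p, 0.28 for miR-23a-3p and miR-27a-3p, 0.28 for miR-30d-5p and miR-30b-5p, 0.31 for miR-192-5p and miR-194-5p, 0.37 for miR-451-5p and miR-144-5p, and 0.48 for miR-99b-5p and miR-125a-5p. The 0.30 of miR-143-3p and miR-145-5p lies within this range. Without NXT-Exo 4 their SD of 0.13 lies below the 0.16 to 0.43 of these 8 pairs. NXT-Exo 4 was left out because it sets this pair apart, so that order does not show an unusually close pair. Other pairs came near 0.13 when a different library was left out. The SD was 0.14 for miR-192-5p and miR-194-5p without NXT-Exo 2, and 0.14 for miR-17-5p and miR-20a-5p without Ctl-Exo 5.

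Between NXT-Exo libraries the SD of log2(CPM + 1) was 0.30 for miR-143-3p, 0.30 for miR-145-5p, 0.35 for miR-143-5p and 0.23 for miR-145-3p. Of the 229 miRNAs averaging 100 reads or more, 171 varied less than miR-143-3p, 167 less than miR-145-5p, 196 less than miR-143-5p and 123 less than miR-145-3p, with a median of 0.22. The guide strands were thus more variable than most miRNAs of this depth.

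Other miRNAs with known roles in smooth muscle did not share a direction. All 18 on the list had reads, edgeR called 0 higher and 0 lower, and their median log2 fold change was -0.01, beside -0.32 for the 4 arms and 0.20 for all 865 miRNAs (0.00 for those averaging 100 reads or more). Over all 865 miRNAs, 39% had a lower NXT-Exo mean and 15.3% had Ctl-Exo 5 above every NXT-Exo library. The share with Ctl-Exo 5 below every one was not counted, so a count of that kind cannot be set against all miRNAs here. A lower NXT-Exo mean was found for 9 of the 18, and Ctl-Exo 5 lay above every NXT-Exo library for 4 and below every one for 4. The former 4, on the same side as the passenger strands, were let-7g-5p (6293 CPM against at most 5617 CPM in NXT-Exo), miR-146a-5p (3694 against 3623 CPM), miR-132-3p (35.4 against 26.1 CPM) and miR-1-3p (33.8 against 28.9 CPM). miR-21-5p, which promotes growth of smooth muscle cells, was 5696 ± 981 CPM (SD, n = 5) in NXT-Exo against 4579 CPM in Ctl-Exo 5, where the control library was below each NXT-Exo library. miR-221-3p, which marks proliferating smooth muscle cells, was 69.8 ± 14.1 CPM (SD, n = 5) against 74.1 CPM, within the NXT-Exo range, and miR-133a-3p, a miRNA of striated muscle that restrains growth of smooth muscle, was 34.7 ± 12.2 CPM (SD, n = 5), where the lowest NXT-Exo library (25.8 CPM) was just above Ctl-Exo 5. The highest estimates were those of miR-31a-5p (1.65, SE 0.62, adjusted p = 0.81 in edgeR) and miR-204-5p (2.84, SE 1.30, adjusted p = 0.81 in edgeR). Their unadjusted p in edgeR was 0.0132 and 0.0371, beside 0.0125 for miR-143-5p in the other direction. In the control library miR-204-5p was 1.09 CPM, below that library's detection floor of 3 reads (1.63 CPM). In NXT-Exo it ran from 0.899 to 17.5 CPM, so Ctl-Exo 5 lay inside the NXT-Exo range. On a list of 10 miRNAs of fibroblasts and mural cells, with reads for all 10, edgeR called 0 in each direction, the median was 0.07, and 3 had a lower NXT-Exo mean. On it, miR-199a-3p was 901.9 ± 175.9 CPM (SD, n = 5) against 1012 CPM, and miR-214-3p, made from a transcript that also gives a copy of miR-199a, was 85.5 ± 22.6 CPM (SD, n = 5) against 63.2 CPM.

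Serum exosomes come from many cell types, and in such a mixture fewer vesicles of a cell type cannot be told apart from less of a miRNA per vesicle. The summed CPM of the 4 arms was 7461 to 12177 across NXT-Exo and 12233 for Ctl-Exo 5. Markers of white cells and platelets (miR-223-3p, miR-142-3p, miR-142-5p and miR-150-5p) were also lower on average in NXT-Exo, although edgeR called 0 of the 4. Their sum was 20705 to 24462 CPM in NXT-Exo against 25676 CPM for Ctl-Exo 5, 4 of 4 had a lower NXT-Exo mean, the control library was above every NXT-Exo library for 2 of 4, and none was at 0. Among all miRNAs averaging 100 reads or more, 48.9% had a lower NXT-Exo mean and 17% had Ctl-Exo 5 above every NXT-Exo library. From library to library the sums differed in order, since NXT-Exo 1 had 12087 CPM of the arms and 20890 CPM of these markers, and NXT-Exo 3 had 7461 and 21396 CPM. Their part in the levels of miR-143 and miR-145 was not tested. The sums of the other marker lists in Ctl-Exo 5 lay within the NXT-Exo range for red cells (210386 CPM against 157715 to 260257 CPM), endothelium (1252 against 1154 to 1498 CPM) and striated muscle (121.4 against 112.6 to 172.7 CPM, with miR-499-5p at 0 in 1 NXT-Exo library). For liver, Ctl-Exo 5 was lower, at 2203 CPM against 3308 to 17426 CPM, opposite in direction to the 4 arms. The highest liver sum was that of NXT-Exo 1, and the next was 6452 CPM in NXT-Exo 5. Nearly all of the liver sum was miR-122-5p. The other liver marker, miR-122-3p, was 7.62 CPM in Ctl-Exo 5, within the NXT-Exo range of 5.47 to 42.7 CPM.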

How the data were processed

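Small RNA of serum exosomes was sequenced in 5 NXT-Exo libraries and 1 Ctl-Exo library. With ACGT101-miR, the authors took out adapter dimers, junk reads, repeats and further RNA classes, and they deposited raw counts for each miRNA sequence. The deposited TPM values equal the count times 1 constant for each library, and 0.01 stands for 0 reads. The aligner and miRNA release are not given in the sources used here. Another 8 columns, of libraries outside the labels, were not used. Listed counts were 86.0% to 88.3% of the totals that TPM implies.

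Groups followed the sample titles. Counts of the 865 miRNAs with reads were scaled by TMM and tested with edgeR 4.0.16 (quasi-likelihood, Benjamini-Hochberg) in R 4.3.3. Scripts were tested on simulated data. DESeq2 1.42.0, other factors, pseudocounts, a filter on low counts and leaving out libraries were alternatives. Python 3.11.15, numpy 2.4.6, pandas 2.3.3, scipy 1.17.1 and matplotlib 3.10.9 were used. In NXT-Exo libraries 1 read was worth 0.261 to 0.782 CPM, in Ctl-Exo 5 0.544 CPM. Two-sided exact tests permuted the place of Ctl-Exo over 6 libraries. The miRNAs, lists and rules were chosen with earlier results of these data known. Named are the 4 arms, their variants, miRNAs sharing a guide-strand seed, the 5 miRNAs closest to each guide strand, fixed pairs and listed examples, the latter chosen after their values were seen. Sequences were credited to RefSeq (GRCr8), where 4 of 4 arms matched.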

Additional observations from a re-analysis of the deposited data

Results flagged for a closer look

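The share of the 5p arm in miR-143 reads was 0.743% in NXT-Exo 5 and 0.530% to 0.588% in NXT-Exo 1 to 4. Its distance to the nearest of these took up 0.730 of the whole range, where Dixon's limit is 0.71 for a group of 5. NXT-Exo 5 thus lay nearest to the 0.886% of Ctl-Exo 5. It was 1 of 13 groups of NXT-Exo values examined, several of them built from the same reads, and chance gives about 1 in 20. Written as miR-143-3p reads per miR-143-5p read, another of the 13 groups, the same reads gave 0.659, below the limit.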

How the results depend on the processing

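No paired analysis was possible because NXT-Exo and Ctl-Exo have 1 number in common. Of 163 values under alternatives, 150 were counted as unchanged. That count is lenient, since it includes the small differences named below that changed sign, and shifts of rank such as 60 to 88. The rest were counts, ranks and SDs of log2 ratios, given here or in the report. The log2 fold changes of the 4 arms were below 0 in 36 of 36 alternative fits, with a lowest edgeR adjusted p of 0.539, and the log2 differences in 40 of 40. All of these used the same Ctl-Exo 5 library. It lay above every NXT-Exo library for the passenger strands, so leaving out an NXT-Exo library could not change the sign of their log2 differences. The number of miRNAs called by edgeR (0) was 0 to 1 when each NXT-Exo library was left out, with the 1 without NXT-Exo replicate 2. The number at least 2-fold apart with Ctl-Exo 5 outside the range (99) fell to 4 with a pseudocount of 10 and to 30 with a mean of at least 10 reads, where fewer miRNAs enter. The rank of miR-145-5p among the miRNAs most like miR-143-3p (60) was 4 to 101 across leaving out each library, and that of miR-145-3p (1) was 1 to 17, choices made after the data were seen, as was leaving NXT-Exo 4 or another library out of the pair SDs. The former was lowest without NXT-Exo replicate 4 and highest (101) when replicate 3 of NXT-Exo was dropped, and its cause was not tested. The rank has no value at a mean of at least 1000 reads, since miR-145-5p had 882.5. The small differences in the ratio of the guide strands (0.03) and in the miR-145 arm share changed sign without NXT-Exo replicate 4 (to -0.11 and to -0.80 percentage points), as did the arm share without NXT-Exo replicate 5 (-0.75) and in pooled reads (-0.36). Depth limits miR-143-5p and miR-145-3p most, with 84 to 285 reads per library, and a single Ctl-Exo library limits every comparison.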
